A study of Homo sapiens with 5 samples.

Results

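The aminoacyl-tRNA synthetases are the enzymes that join each amino acid to its own tRNA, and their transcripts were followed in MDA-MB-231 cells exposed to SAHA. The members were 35 human genes fixed by symbol, 19 for cytosolic and 16 for mitochondrial enzymes. A gene was read through the array probe set (a group of oligonucleotide probes for the same transcript) with the highest mean over all arrays. Of the 35, 32 were measured among 19775 genes in all, 17 cytosolic and 15 mitochondrial. MARS1, QARS1 and TARS2 had only probe sets that the annotation gives to several genes, so no value was assigned to them.

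MDA-MB-231 is a mesenchymal human breast cancer line. SAHA (suberoylanilide hydroxamic acid, vorinostat) inhibits histone deacetylases, enzymes that take acetyl groups off histones and other proteins. The groups were 2 arrays of cells kept in 2 uM SAHA for 30 h and 3 arrays of cells kept in the vehicle DMSO for 30 h, with no other stated difference. All arrays come from this single line. No label tells whether replicates were cultured separately, so the p-values below cover the spread among 5 arrays and no more, and that spread may be technical.

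Of 15 marker genes measured, the 6 that MDA-MB-231 is known to express (such as VIM and CD44) lay at mean log2 intensities of 10.99 to 13.85 in SAHA and 10.33 to 13.97 in DMSO. The 5 it is known to lack or hold low (such as ESR1 and PGR) lay at 4.52 to 9.54 in SAHA and 4.49 to 7.93 in DMSO, with CDH1 and ERBB3 higher in SAHA. The 4 markers of blood, endothelium and liver lay at 3.44 to 7.61 and 3.78 to 7.48. The array DMSO 1 stood apart in the log2 difference between the 3' and 5' probe sets for ACTB, at 3.29, against 2.04 to 2.22 on the other 4 arrays. Added polyadenylated control RNAs read higher on both SAHA arrays than on all DMSO arrays for 24 of 24 probe sets. The median log2 difference was 0.39. On the 5' probe sets of these controls DMSO 1 read lowest, such as DapX-5 at 8.59, against 9.16 and 9.11 on DMSO 2 and DMSO 3. The DapX-3 probe set read 13.14 on DMSO 1, against 13.08 and 13.09. Whether the ACTB difference of DMSO 1 lies in the RNA of the cells was not tested. The 24 control probe sets read the same few RNAs (dap, lys, phe and thr) repeatedly, so they are not independent. Their log2 differences depended on position, at 0.17 to 0.31 for 3' and 0.37 to 0.66 for 5' probe sets. The size of a shift taken from them therefore depends on the probe sets used. Centring the arrays on these controls moved every gene by the same log2 amount, -0.37, and the median gene to -0.40. Its effect is given below for each named gene whose call it ends and for the counts of the lists.

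Cytosolic and mitochondrial protein synthesis use largely separate sets of synthetases, and nuclear genes encode both. Mitochondrial enzymes are imported and serve the few proteins encoded in mitochondrial DNA. In human cells ATF4, a transcription factor made in larger amounts when the translation factor eIF2 is phosphorylated, is known to raise transcription of many cytosolic synthetase genes. It does so through a composite C/EBP-ATF response element in their promoters.

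The 5 promoter windows below are shown because they hold that element's core, found in more of the cytosolic than of the mitochondrial members. The sequences are from RefSeq, run from 250 bases before to 50 after the annotated start, and read 5' to 3' on the gene's strand. The capitals mark the match to TGATGNAA, searched on both strands, so that TTGCATCA is the match read on the other strand.
AARS1 promoter, GRCh38.p14 chr16:70289457-70289756, minus strand: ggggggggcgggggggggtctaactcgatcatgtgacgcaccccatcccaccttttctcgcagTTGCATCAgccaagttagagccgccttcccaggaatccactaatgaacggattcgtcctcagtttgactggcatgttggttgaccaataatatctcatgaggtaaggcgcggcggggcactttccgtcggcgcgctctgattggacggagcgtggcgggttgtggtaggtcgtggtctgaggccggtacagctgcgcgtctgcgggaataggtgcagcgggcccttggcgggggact
IARS1 promoter, GRCh38.p14 chr9:92293648-92293947, minus strand: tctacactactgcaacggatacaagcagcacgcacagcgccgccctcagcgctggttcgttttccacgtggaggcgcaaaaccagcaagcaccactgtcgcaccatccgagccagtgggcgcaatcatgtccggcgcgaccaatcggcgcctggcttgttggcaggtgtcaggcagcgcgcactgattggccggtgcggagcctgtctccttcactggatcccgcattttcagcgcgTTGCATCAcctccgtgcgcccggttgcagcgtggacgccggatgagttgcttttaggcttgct
CARS1 promoter, GRCh38.p14 chr11:3057374-3057673, minus strand: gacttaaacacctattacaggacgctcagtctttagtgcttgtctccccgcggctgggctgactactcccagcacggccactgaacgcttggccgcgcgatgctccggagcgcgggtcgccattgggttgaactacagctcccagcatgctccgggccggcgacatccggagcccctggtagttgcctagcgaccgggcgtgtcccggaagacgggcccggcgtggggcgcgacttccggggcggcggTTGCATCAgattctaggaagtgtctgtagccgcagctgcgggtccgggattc
TARS1 promoter, GRCh38.p14 chr5:33440715-33441014, plus strand: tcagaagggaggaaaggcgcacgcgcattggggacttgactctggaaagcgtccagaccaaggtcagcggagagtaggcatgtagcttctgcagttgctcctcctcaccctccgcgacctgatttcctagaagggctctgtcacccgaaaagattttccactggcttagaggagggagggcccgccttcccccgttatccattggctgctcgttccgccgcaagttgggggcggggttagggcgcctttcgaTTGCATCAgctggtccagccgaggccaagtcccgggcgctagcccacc
YARS2 promoter, GRCh38.p14 chr12:32755848-32756147, minus strand: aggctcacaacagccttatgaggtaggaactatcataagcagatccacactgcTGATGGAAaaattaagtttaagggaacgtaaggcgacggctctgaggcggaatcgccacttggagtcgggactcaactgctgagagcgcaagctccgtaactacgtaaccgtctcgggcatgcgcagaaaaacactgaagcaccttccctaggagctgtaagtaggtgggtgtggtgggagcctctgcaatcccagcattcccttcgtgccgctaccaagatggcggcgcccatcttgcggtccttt

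Promoter windows were at hand for 30 of the 35 members, in 39 windows. The core was found for 7 of 16 cytosolic genes (43.8%) and 1 of 14 mitochondrial genes (7.14%), against 4.46% of 27305 genes in the table, which includes noncoding genes. By window the shares were 33.3%, 5.56% and 3.62%. The cytosolic genes with the core were AARS1, CARS1, GARS1, IARS1, MARS1, NARS1 and TARS1. All 7 belong to the 13 cytosolic genes widely described as ATF4 targets, of which 10 had a window, and the core was found for 0 of 6 other cytosolic genes. Counting the first transcribed base as 0, the match in IARS1 began at -13, that in CARS1 at -2 and that in TARS1 at 2, close to the start, while that in AARS1 lay further upstream at -187. The mitochondrial YARS2 had its match at -197, with a different base at the free position. A match describes these letters only and is no measurement of binding.

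**Figure D1:**
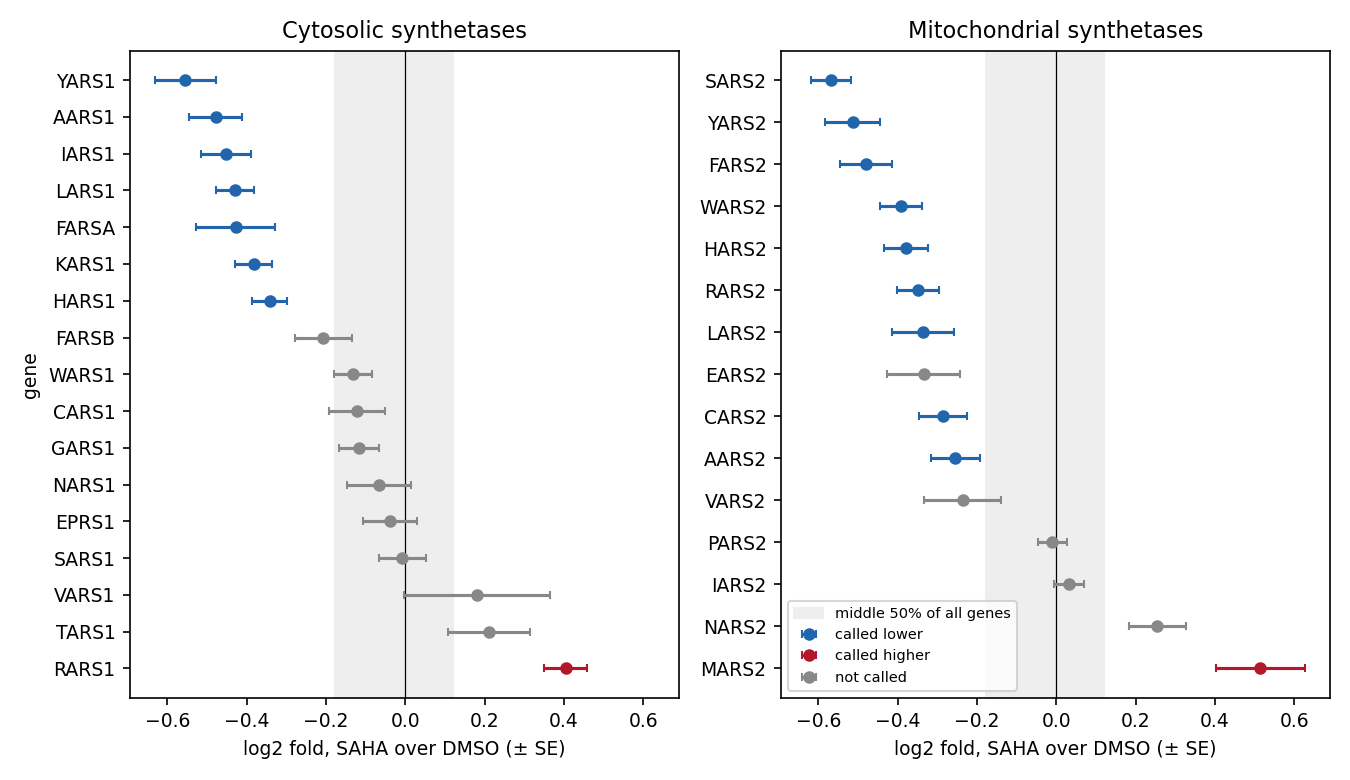
Log2 fold of SAHA over DMSO for the 17 cytosolic (left) and 15 mitochondrial (right) synthetases measured. Points are estimates from limma, bars are standard errors, colours give the call, and the grey band holds the middle 50% of all 19775 genes. Most members lie left of 0, and RARS1 and MARS2 are the 2 called higher.

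Synthetase transcripts were mostly lower after SAHA, by modest amounts. Of 32 measured members, 16 fell (50%) and 2 rose (6.25%) in limma, where the adjusted p (Benjamini-Hochberg, all genes) was under 0.05, and 14 did not pass. Of all genes 29.6% were called, 15.6% lower and 14.0% higher. The members were bright, with a median log2 intensity of 10.20 to 10.62 per array, against 7.55 to 7.56 for all genes. Without the dimmest 40% of genes, 11865 remained, of which 3175 were called lower and 2721 higher. There 7 cytosolic and 10 mitochondrial members fell, and 1 and 2 rose. The median log2 fold of the members was -0.27, against -0.03 for all genes. Calls were for small differences: folds of the 16 that fell ran from -0.57 to -0.26 on the log2 scale. Called genes of the whole array had a median absolute log2 fold of 0.60. Both SAHA arrays lay below all DMSO arrays for 22 members and above them for 5, where 26.0% and 22.1% of all genes showed these arrangements, 48.1% in all. In RNA of whole cultures, fewer cells expressing a gene and less of its RNA per cell cannot be told apart.

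The calls rested on few arrays. With each array left out in turn, 8 of the 18 called members kept their call every time, 5 cytosolic (AARS1, HARS1, IARS1, KARS1 and LARS1) and 3 mitochondrial (SARS2, WARS2 and YARS2). The number that fell was 9 without SAHA 1 or SAHA 2, 12 without DMSO 1 or DMSO 3 and 16 without DMSO 2. The number that rose was 1 without DMSO 1, DMSO 2 or SAHA 2, 3 without DMSO 3 and 0 without SAHA 1. Over all genes, 2353 fell without DMSO 1, 2217 without DMSO 2 and 1985 without DMSO 3, against 3089 with all arrays. The rises numbered 2075, 1834 and 1769 in these fits, against 2760 with all arrays. After poly-A centring 27 members were called lower and 0 higher. Of all 19775 genes, 14740 were then called lower and 1380 higher. Every count after poly-A centring below has to be read beside these.

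Among the cytosolic enzymes 7 of 17 fell and 1 rose, with a median log2 fold of -0.13. Over all genes 15.6% fell and 14.0% rose. YARS1, the tyrosine enzyme, had intensities of 2263 and 2145 on the SAHA arrays, against 3268, 2994 and 3464 on the DMSO arrays. The groups did not overlap, and YARS1 fell by 31.9% (log2 fold -0.55 ± 0.08, SE; limma adjusted p = 0.00746), the lowest cytosolic fold. Without SAHA 1 or SAHA 2 the limma adjusted p of YARS1 was 0.0573 and 0.0629, and 0.0562 on its other probe set, which reads no shared sequence.

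AARS1, the alanine enzyme, which also clears serine mischarged to its tRNA, had intensities of 920 and 1009 in SAHA, against 1378, 1275 and 1377 in DMSO. Both SAHA arrays were low, and AARS1 fell by 28.2% (log2 fold -0.48 ± 0.07, SE; limma adjusted p = 0.00753). IARS1, the isoleucine enzyme, had intensities of 6508 and 5854 in SAHA, against 8655, 8206 and 8484 in DMSO. LARS1, the leucine enzyme and a leucine sensor for mTORC1, had 2264 and 2129 in SAHA, against 2886, 2983 and 2999 in DMSO. Neither gene's groups overlapped. IARS1 fell by 26.9% (limma adjusted p = 0.0075), and LARS1 fell by 25.7% (limma adjusted p = 0.00411). For LARS1 the other 3 probe sets gave log2 folds of 0.03, -0.15 and -0.22, and none of these was called, while the average of all 4 lay at -0.19.

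FARSA encodes the catalytic chain of the cytosolic phenylalanine enzyme, and FARSB the partner chain. FARSA had intensities of 455 and 518 in SAHA, against 715, 601 and 648 in DMSO. The arrays of each group were spread widely but did not overlap, and FARSA fell by 25.7% (limma adjusted p = 0.0359). That call ended with any 1 array left out (limma adjusted p = 0.0591 to 0.185). FARSB had a log2 fold of -0.21 ± 0.07 (SE), which did not pass (limma adjusted p = 0.105), with both SAHA arrays below the DMSO arrays. Its other probe sets were dim and pointed upward, and the average of its probe sets was 0.12 (limma adjusted p = 0.159).

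RARS1, the arginine enzyme, was the cytosolic member that rose. It had intensities of 6898 and 6788 in SAHA, against 5356, 4908 and 5260 in DMSO. Both SAHA arrays were high, a rise of 32.3% (log2 fold 0.40 ± 0.05, SE; limma adjusted p = 0.00679). The call ended without SAHA 1 (limma adjusted p = 0.0549), and after poly-A centring the log2 fold of RARS1 was 0.03 (limma adjusted p = 0.817).

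KARS1 and GARS1 each give rise to both the cytosolic and the mitochondrial form of their enzyme. KARS1, for lysine, had intensities of 9292 and 9121 in SAHA, against 12135, 11563 and 12308 in DMSO. It fell by 23.3% (log2 fold -0.38 ± 0.05, SE; limma adjusted p = 0.0051), and its other probe set was also called, at -0.47 (limma adjusted p = 0.0111 over all probe sets). GARS1, for glycine, had intensities of 6707 and 7134 in SAHA, against 7320, 7452 and 7728 in DMSO. Its SAHA arrays lay lower without overlap, but the log2 fold of -0.12 ± 0.05 (SE) did not pass (limma adjusted p = 0.177). HARS1, the histidine enzyme, fell by 21.1% (limma adjusted p = 0.006).

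The other cytosolic members did not pass. WARS1, the tryptophan enzyme, which interferon is known to induce, had a log2 fold of -0.13 (limma adjusted p = 0.121), and CARS1, for cysteine, one of -0.12. NARS1, for asparagine, lay at -0.07, SARS1, for serine, at -0.01 and EPRS1, which carries the glutamate and proline enzymes in the same chain, at -0.04. SARS1 had a dimmer probe set at -0.32, not called, and gave -0.17 with both averaged (limma adjusted p = 0.0621). EPRS1 had a dimmer probe set called higher, at 0.32 (limma adjusted p = 0.0229 over all probe sets), so its probe sets did not go the same way. VARS1, for valine, gave 0.18 with DMSO 1 low at an intensity of 423, against 601 and 614 on the other DMSO arrays, and the log2 fold was 0.01 without DMSO 1. TARS1, for threonine, gave 0.21 (limma adjusted p = 0.228).

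Within the cytosolic set, the 12 measured genes widely described as ATF4 targets had 4 that fell, 0 that rose and a median log2 fold of -0.12. The other 5 (FARSA, FARSB, HARS1, KARS1 and RARS1) had 3 that fell, 1 that rose and a median of -0.34. For the counts in this paragraph, the shares over all genes were 15.6% lower and 14.0% higher before poly-A centring. After poly-A centring 10 of the 12 and 4 of the 5 were lower and 0 higher. The difference between these groups was not tested. The 4 that fell among the ATF4 list were AARS1, IARS1, LARS1 and YARS1. By promoter, 2 of 6 measured cytosolic genes with the element core fell (median -0.12), against 3 of 8 with a window but no core (median -0.17), where 1 rose. Of the 5 measured catalytic members of the multisynthetase complex, a cytosolic assembly of several synthetases, IARS1, KARS1 and LARS1 fell, RARS1 rose and EPRS1 did not pass. After poly-A centring 4 of the 5 were lower and 0 higher.

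**Figure D2:**
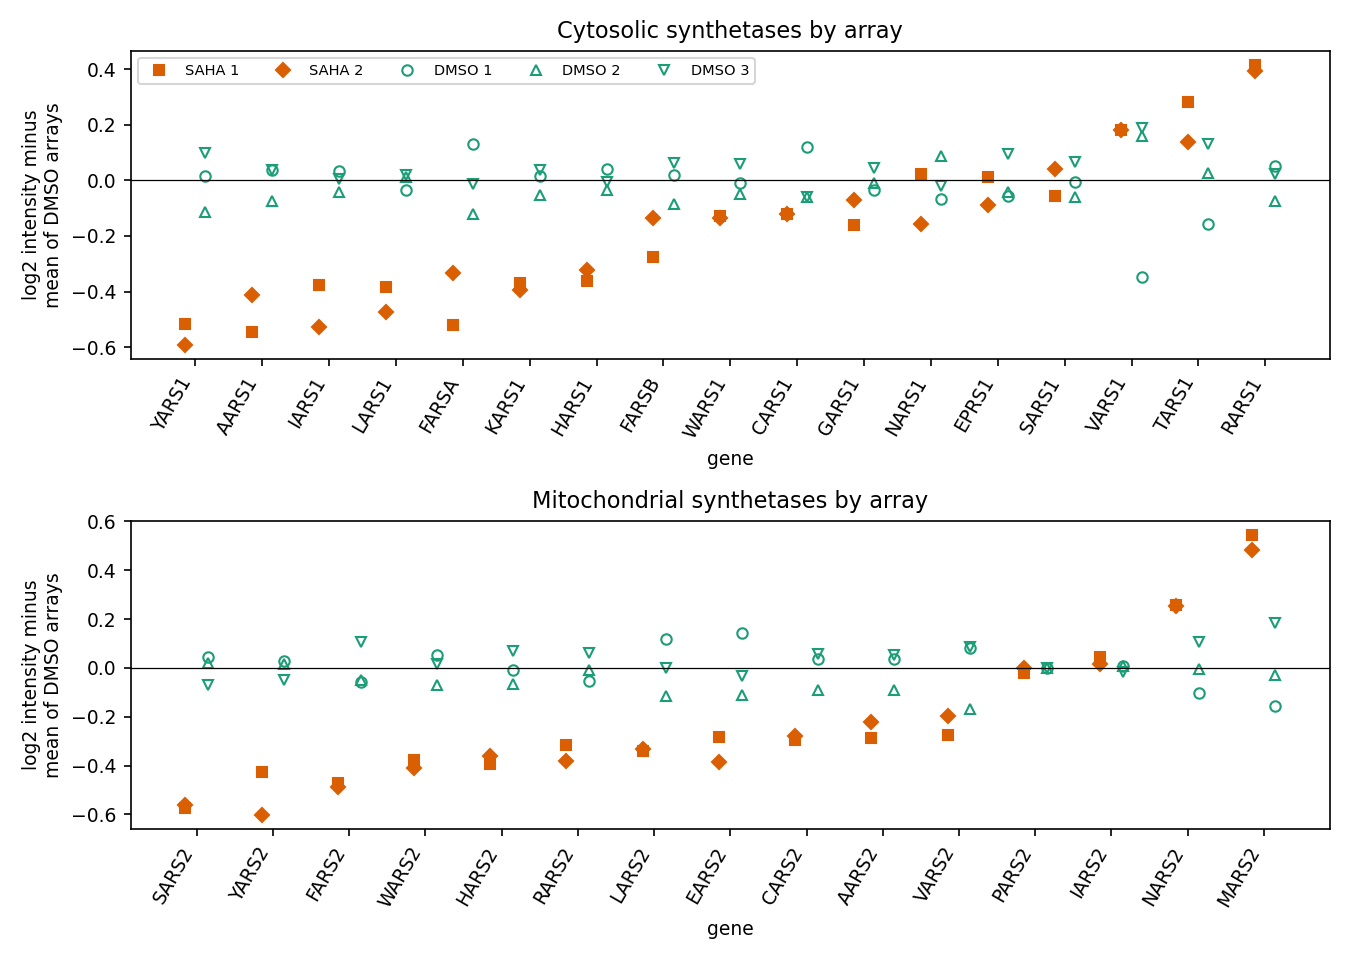
Log2 intensity on each array minus the mean of the 3 DMSO arrays, for cytosolic (top) and mitochondrial (bottom) members ordered by log2 fold. Filled orange symbols are the 2 SAHA arrays and open green symbols the 3 DMSO arrays. For the members at the left of each row both SAHA arrays lie below all DMSO arrays, while VARS1 shows a low DMSO 1.

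Among the mitochondrial enzymes 9 of 15 fell and 1 rose, with a median log2 fold of -0.33. Over all genes 15.6% fell and 14.0% rose. Without SAHA 1 or SAHA 2 the number that fell was 4. SARS2, the mitochondrial serine enzyme, had intensities of 150 and 151 in SAHA, against 231, 227 and 213 in DMSO. The SAHA arrays were nearly equal and low, and SARS2 fell by 32.6% (log2 fold -0.57 ± 0.05, SE; limma adjusted p = 0.00229). It had the lowest fold of all members and kept its call under all 18 alternatives tried. The deposited values hold no detection calls, so its signal over background is not known.

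YARS2, for tyrosine, had intensities of 222 and 196.5 in SAHA, against 305, 302 and 288.5 in DMSO. The groups did not overlap, and YARS2 fell by 29.9% (limma adjusted p = 0.00693). FARS2, the phenylalanine enzyme, made of a lone chain in mitochondria, had 929 and 920 in SAHA, against 1240, 1245 and 1388 in DMSO. FARS2 fell by 28.3% (limma adjusted p = 0.0074), and a further probe set of it was called at -0.45 (limma adjusted p = 0.0107 over all probe sets). Without SAHA 1 or SAHA 2 the adjusted p of FARS2 was 0.0632 and 0.0585.

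WARS2, for tryptophan, had intensities of 622 and 608.5 in SAHA, against 839, 769 and 816 in DMSO. HARS2, for histidine, had 949 and 972 in SAHA, against 1243, 1194 and 1312 in DMSO. The arrays of the groups did not overlap for either gene. WARS2 fell by 23.8% (limma adjusted p = 0.00722), and the log2 fold was -0.22 with its 3 probe sets averaged, against -0.39 for the brightest. HARS2 fell by 23.1% (limma adjusted p = 0.0087), though not without SAHA 1 (limma adjusted p = 0.0643). RARS2, for arginine, had 977 and 935 in SAHA, against 1171, 1211 and 1271 in DMSO. RARS2 fell by 21.5% (limma adjusted p = 0.0102), but not without SAHA 2 (limma adjusted p = 0.0569), and with its 6 probe sets averaged the log2 fold was -0.12 (limma adjusted p = 0.157).

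LARS2, CARS2 and AARS2, for leucine, cysteine and alanine, also fell, with log2 folds of -0.34, -0.29 and -0.26 (limma adjusted p = 0.0354, 0.026 and 0.0391). Each of these 3 calls ended without DMSO 1, DMSO 3, SAHA 1 or SAHA 2 (limma adjusted p = 0.0561 to 0.168). CARS2 gave 0.070 with its probe sets averaged (limma adjusted p = 0.439), where a dim probe set pointed upward at 0.81. EARS2, for glutamate, missed the threshold at -0.33 (limma adjusted p = 0.0565; -0.16 with probe sets averaged), and VARS2, for valine, at -0.24 (limma adjusted p = 0.158).

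MARS2, the mitochondrial methionine enzyme, was the member that rose most. It had intensities of 302 and 289 in SAHA, against 185.5, 203 and 235 in DMSO. The SAHA arrays lay above the spread of the DMSO arrays, a rise of 42.9% (log2 fold 0.51 ± 0.11, SE; limma adjusted p = 0.0284). The call ended without DMSO 1, DMSO 2, SAHA 1 or SAHA 2 (limma adjusted p = 0.0625 to 0.171), and after poly-A centring the log2 fold of MARS2 was 0.14 (limma adjusted p = 0.27). NARS2, for asparagine, lay at 0.25 (limma adjusted p = 0.0604) and IARS2, for isoleucine, at 0.03 (limma adjusted p = 0.583), which turned to -0.34 after poly-A centring (limma adjusted p = 0.00948). PARS2, for proline, read 133.9 and 135.9 in SAHA and 135.9 on all 3 DMSO arrays, so no difference was detectable. Exact ties between arrays also occurred for VARS1 in SAHA and for CARS1 and IARS2 in DMSO. Ties narrow the spread that the p-values rest on, and their cause was not tested.

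Set against each other, the mitochondrial enzymes had the lower median and the larger share called lower, 60% against 41.2% of the cytosolic enzymes. Relative to the DMSO mean, the median mitochondrial enzyme lay at -0.29 and -0.33 on the SAHA arrays, against 0.03, -0.05 and 0.05 on the DMSO arrays. The median cytosolic enzyme lay at -0.16 and -0.14 in SAHA, against 0.01, -0.05 and 0.04 in DMSO. The order of the counts did not hold without SAHA 1 or SAHA 2, when 4 of 15 mitochondrial and 5 of 17 cytosolic enzymes fell. Nor did it hold at an adjusted p under 0.01, with 5 of 15 and 6 of 17, or with probe sets averaged, with 6 of 15 and 7 of 17. With probe sets averaged the medians were also closer, at -0.21 for mitochondrial and -0.16 for cytosolic enzymes. The difference between the compartments was not tested.

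**Figure D3:**
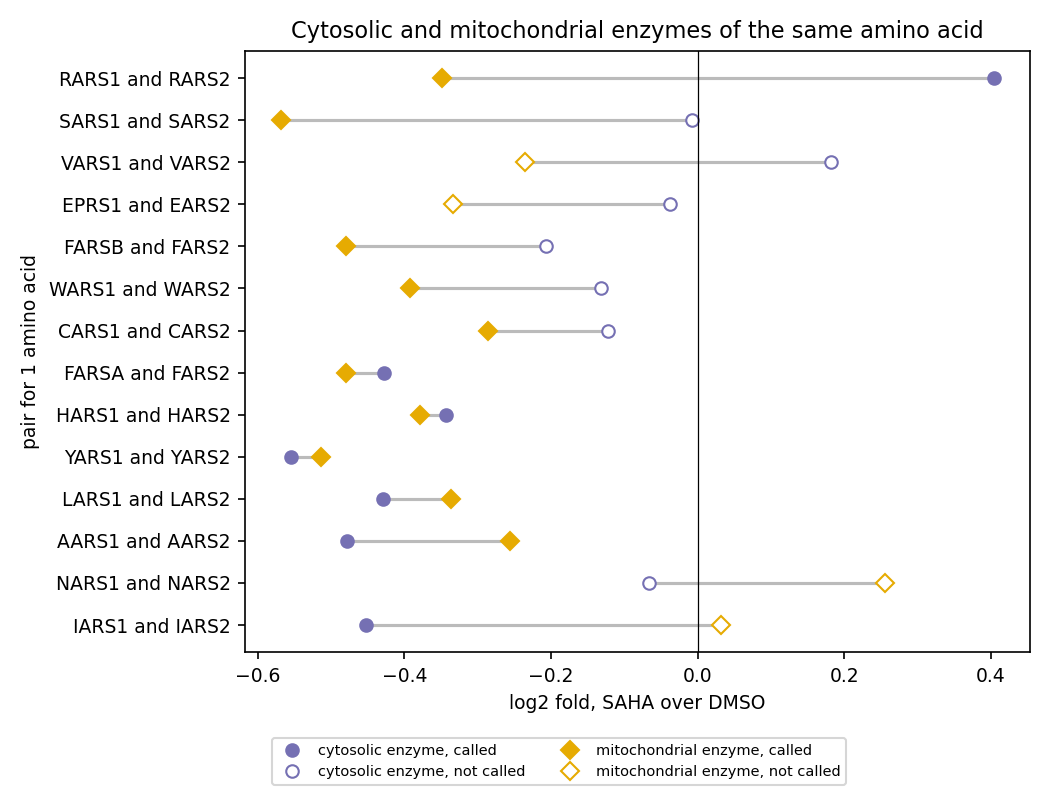
Log2 fold of SAHA over DMSO for the cytosolic (circles) and mitochondrial (diamonds) enzymes of the same amino acid, 14 pairs, ordered by the difference. Filled symbols passed limma's test and open ones did not. RARS1 and RARS2 lie on opposite sides of 0, and for 9 pairs the mitochondrial fold is the lower.

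Enzymes for the same amino acid were set side by side in 14 pairs, in which FARSA and FARSB share FARS2. EPRS1 was paired with EARS2 only. Its pairing with the proline enzyme PARS2 (log2 folds of -0.04 and -0.01, neither called) was left out of the 14. Both enzymes fell in 5 pairs, those of alanine, histidine, leucine and tyrosine and FARSA with FARS2. Only the mitochondrial enzyme passed, lower, in 4 pairs, those of cysteine, serine and tryptophan and FARSB with FARS2. The isoleucine pair was the reverse, with IARS1 lower and IARS2 not called. The asparagine and valine pairs and EPRS1 with EARS2 had no call.

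The arginine pair was called in opposite directions, with RARS1 at 0.40 and RARS2 at -0.35. The log2 ratio of RARS1 to RARS2 on the same array was 2.82 and 2.86 in SAHA, against 2.19, 2.02 and 2.05 in DMSO. For serine, the log2 ratio of SARS1 to SARS2 was 4.64 and 4.72 in SAHA, against 4.07, 4.04 and 4.25 in DMSO. Both ratios were higher on the SAHA arrays without overlap, and in the isoleucine pair the ratio was lower without overlap, at 0.46 and 0.33 in SAHA, against 0.91, 0.83 and 0.90 in DMSO. The arginine, serine and isoleucine pairs had the widest differences of folds, but a lack of overlap was common. The ratio was also lower without overlap for alanine and asparagine. It was higher without overlap for cysteine, valine, tryptophan, EPRS1 with EARS2 and FARSB with FARS2. It overlapped for histidine, leucine, tyrosine and FARSA with FARS2. Taken singly, 48.1% of all genes showed no overlap. The share among ratios of other gene pairs is not given here, so the number of pairs without overlap cannot be judged. Such ratios do not depend on how whole arrays are scaled. Only the brightest probe set of each gene enters these ratios. With probe sets averaged some folds differed, such as RARS2 at -0.12, SARS1 at -0.17, CARS2 at 0.070, EPRS1 at 0.16 and FARSB at 0.12. RARS1, SARS2, IARS1 and IARS2 had 1 probe set each, so their folds did not change. These ratios were not tested; with 2 arrays against 3, a two-sided exact permutation test cannot go below p = 0.2.

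HARS1 and HARS2 are neighbours in the genome and point away from each other. Their promoter windows, chr5:140691321-140691620 on the minus strand and chr5:140691205-140691504 on the plus strand (GRCh38.p14), share 184 bases. Their log2 folds were -0.34 and -0.38, and the log2 ratio of HARS1 to HARS2 was 0.71 and 0.72 in SAHA, against 0.73, 0.71 and 0.60 in DMSO. The ratio overlapped between groups.

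Synthetases also divide into 2 structural classes by the fold of the catalytic domain. Of 17 measured members of class I, 8 fell and 2 rose, with a median log2 fold of -0.29. Of 15 of class II, 8 fell and 0 rose, with a median of -0.26. The shares over all genes were 15.6% lower and 14.0% higher. Without SAHA 1 or SAHA 2 the falls numbered 5 and 4 in class I and 4 and 5 in class II. After poly-A centring 14 of class I and 13 of class II were lower and 0 higher. RARS1 and MARS2, the 2 that rose, are both of class I. Searches for other letters gave CCGGAAG, an ETS motif bound by GABP. It was in windows of 9 of 16 cytosolic and 7 of 14 mitochondrial genes, against 12.2% of all genes. HARS1 and HARS2, whose windows share 184 bases, are both counted there, and all genes here include noncoding genes. The MYC-type E-box CACGTG was in 1 of 16 and 3 of 14 (8.77% of all genes), and the NRF1 motif, GCGCA directly followed by TGCGC, in 0 of 16 and 1 of 14 (1.52% of all genes), which was MARS2. The first search was on both strands, and the last pair of motifs read the same on both.

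Members were covered by 67 probe sets with 1 gene, and 14 members had only 1. Over all probe sets of the array with 1 gene, 22.1% were called and 11.1% called lower. Of the members' 67, 17 were called lower and 3 higher. Of the 35 that were not the brightest of their gene, 26 had the same sign as the brightest, 2 were called lower (KARS1 and FARS2) and 1 higher (EPRS1). Of the 10 called members with a further probe set, 2 had one called in the same direction by this test and 0 in the opposite direction. Few further probe sets were called in either direction, so the lack of opposite calls says little.

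**Figure D4:**
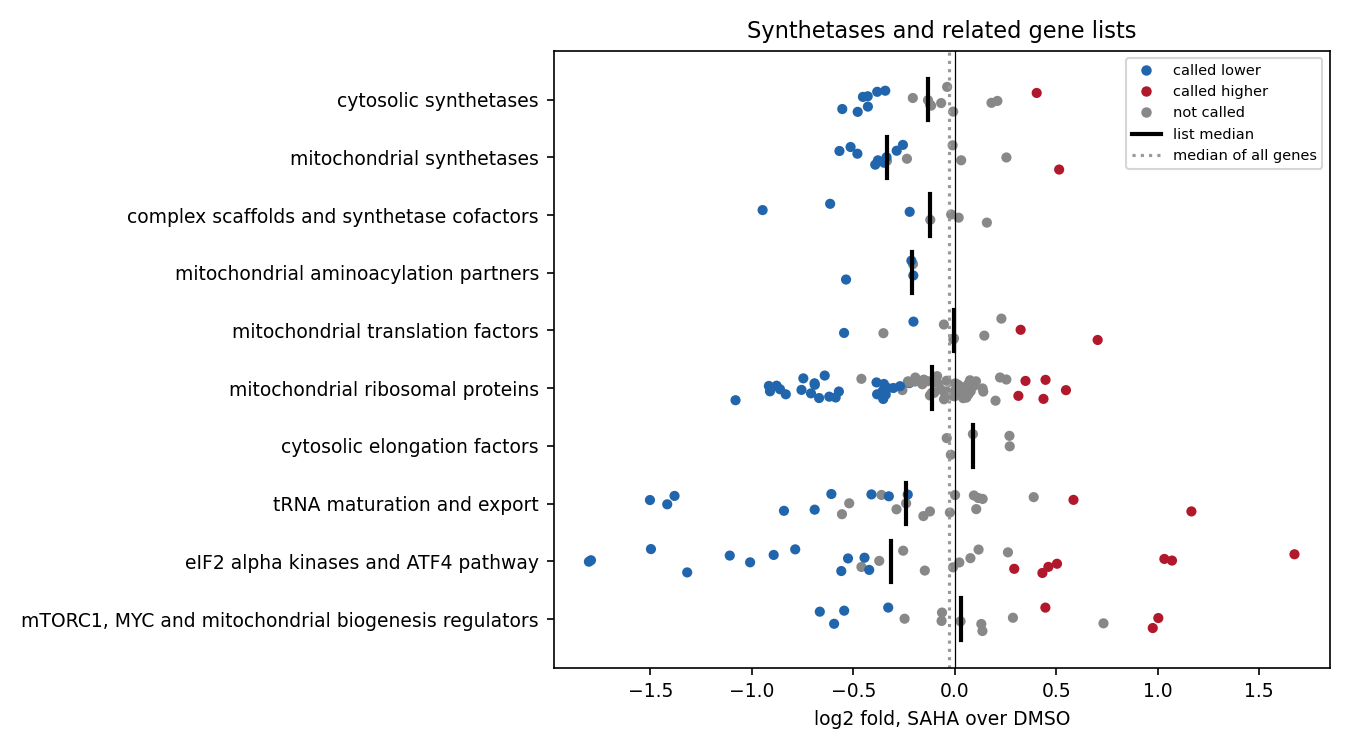
Log2 fold of SAHA over DMSO for measured genes of the synthetase sets and 8 related lists. Points are genes coloured by call, black bars are list medians and the dotted line is the median of all genes. The ATF4 pathway spreads from -1.80 to 1.67, wider than the synthetases at -0.57 to 0.51.

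ATF4 itself had log2 intensities of 11.59 and 11.39 in SAHA, against 12.27, 12.41 and 12.48 in DMSO. Both SAHA arrays were low, and ATF4 fell by 0.89 on the log2 scale, with an SE of 0.10 (limma adjusted p = 0.0036). Of 28 genes of the eIF2 kinases and ATF4 pathway, 12 fell (42.9%) and 7 rose (25%), with a median log2 fold of -0.31. For this list and those below, the shares over all genes were 15.6% lower and 14.0% higher. These shares include dim genes. Without the dimmest 40%, 3175 of 11865 genes were called lower and 2721 higher. The factor ATF5 (-1.80), the pseudokinase TRIB3 (-1.79) and the factor DDIT3 (-1.50) fell, and the lipoprotein receptor VLDLR rose (1.67). ASNS, asparagine synthetase, fell by 0.53 on the log2 scale, though a probe set without shared sequence gave -0.14 (limma adjusted p = 0.402). EIF2AK4, the kinase that senses uncharged tRNA, rose by 0.29 (limma adjusted p = 0.0335), a call that ended without DMSO 1, DMSO 2, SAHA 1 or SAHA 2 (limma adjusted p = 0.0595 to 0.162) and turned to -0.080 after poly-A centring. With probe sets averaged ATF5 gave -0.74, TRIB3 -1.13 and ASNS -0.33. The number of this list that rose was 3 without DMSO 2 and 4 without SAHA 1, and after poly-A centring 20 were lower and 3 higher.

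Among 7 measured scaffolds and cofactors, 3 fell (42.9%) and 0 rose, with a median of -0.12. DTD1, which frees tRNA from D-amino acids, fell (-0.95), SEPHS2, of selenocysteine synthesis, fell (-0.61), and AIMP1, a scaffold of the multisynthetase complex, fell (-0.22; limma adjusted p = 0.0477). AIMP1 lost its call with any 1 array left out (0.0575 to 0.131) and SEPHS2 without DMSO 3, SAHA 1 or SAHA 2 (0.0582 to 0.0799). A probe set of DTD1 without shared sequence gave -0.05. With probe sets averaged DTD1 gave -0.50. AIMP2 and EEF1E1 were not tested here. The number that fell in this list was 1 without DMSO 3, SAHA 1 or SAHA 2, and 2 without DMSO 1 or DMSO 2. After poly-A centring 6 were lower and 0 higher.

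Of the 4 genes that finish mitochondrial aminoacylation, 3 fell (75%), with a median of -0.21. QRSL1 (-0.54) and GATC (-0.20) belong to the amidotransferase that makes glutaminyl-tRNA in mitochondria, and MTFMT (-0.21) formylates the methionyl-tRNA that MARS2 makes. None of the 3 passed without DMSO 1, DMSO 3, SAHA 1 or SAHA 2 (limma adjusted p = 0.0752 to 0.133), and with probe sets averaged GATC gave 0.072 and QRSL1 -0.33. GATB, of the same amidotransferase, did not pass at -0.21 (limma adjusted p = 0.0955). After poly-A centring all 4 were called lower.

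Of 75 mitochondrial ribosomal protein genes, 26 fell (34.7%) and 5 rose (6.67%), with a median of -0.11. MRPL11 (-1.08), MRPL9 (-0.92), MRPL54 (-0.91) and MRPS26 (-0.88) had the lowest folds, MRPL54 not called without SAHA 1 (limma adjusted p = 0.0682). The falls numbered 14 without SAHA 1 and 17 without SAHA 2, and the rises 2 without DMSO 1 or DMSO 3 and 3 without DMSO 2 or SAHA 1. After poly-A centring 64 were called lower and 0 higher. Of 10 mitochondrial translation factors, 2 fell (20%) and 2 rose (20%), with a median of -0.01, near the shares of 15.6% and 14.0% over all genes. The release factor MTRF1L rose (0.70) but gave -0.29 without shared-sequence probe sets (limma adjusted p = 0.249). The elongation factor TUFM rose (0.32) but lay at -0.049 after poly-A centring. With probe sets averaged MTRF1L gave 0.25 and TUFM 0.16. The initiation factor MTIF2 (-0.55) and MTRF1 (-0.20) fell. Of these 4 genes only MTRF1L was called with each array left out. The others ended in 3 to 5 of those 5 fits, so that 1 to 2 factors rose and 0 to 1 fell. After poly-A centring 6 factors were lower and 1 higher.

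Cytosolic elongation factors had 0 of 5 called in limma at this threshold and a median of 0.09, and with SAHA 2 left out 1 rose. After poly-A centring 3 were lower. Of 25 genes of tRNA maturation and export, 9 fell (36%) and 2 rose (8%), with a median of -0.24. WDR4 (-1.50) of the tRNA methyltransferase complex, the methyltransferase TRMT5 (-1.42) and the pseudouridine synthase PUS7 (-1.38) fell, and PUS3, another pseudouridine synthase, rose (1.17). With probe sets averaged WDR4 and TRMT5 both gave -0.57, and TRMT5 gave 0.28 without shared-sequence probe sets (limma adjusted p = 0.085). XPOT, the tRNA exporter, had a log2 fold of -0.52 ± 0.20 (SE), which did not pass (limma adjusted p = 0.142). XPOT passed with its probe sets averaged, at -0.66 (limma adjusted p = 0.00691). The falls numbered 6 without DMSO 3, and the rises 3 without SAHA 1 or SAHA 2. After poly-A centring 20 were lower and 1 higher.

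Of 15 regulators of growth and mitochondrial biogenesis, 4 fell (26.7%) and 3 rose (20%), with a median of 0.03. Of all genes 15.6% fell and 14.0% rose. The coactivator PPARGC1A (1.00) and MYC (0.98) rose, and the coactivator PPRC1 (-0.67) and NRF1 (-0.59), a factor for nuclear genes of mitochondrial function, fell. GABPB1, a chain of GABP named after its value was seen, fell too (-0.54). Calls ended without SAHA 1 for PPARGC1A, MYC and GABPB1 (limma adjusted p = 0.0726, 0.0749 and 0.12). They also ended without DMSO 2 for PPARGC1A and GABPB1 (0.0511 and 0.102), without DMSO 3 for PPARGC1A (0.0648) and without SAHA 2 for MYC and GABPB1 (0.0517 and 0.152). With probe sets averaged NRF1 gave -0.28 and PPARGC1A 0.50. The rises numbered 1 without SAHA 1, and the falls 2 without DMSO 2. After poly-A centring 8 were lower and 3 higher. TARS3, a further threonine enzyme outside the member list, had a log2 fold of 0.24 and did not pass (limma adjusted p = 0.215).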

How the data were processed

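RMA and R 2.12 are the tools named in the submitters' processing notes, and the deposited values are intensity values on a linear scale for 54675 probe sets. RMA subtracts background, equalises the arrays' distributions and summarises probes, so a shift of all transcripts in 1 direction is removed. A transfection appears in the labels' extraction text alone. No further normalization was made here, and log2 was taken. Of the probe sets, 41091 had 1 gene in the platform annotation, with symbols updated through gene identifiers. Probe sets with no gene, or more than 1, were not used. The brightest stood for its gene, with no filter on level. The contrast of SAHA and DMSO was fitted by limma 3.58.1 under R 4.3.3 (lmFit, eBayes, no covariates, two-sided), with Benjamini-Hochberg adjustment over 19775 genes, or over all probe sets with 1 gene where stated. The fit had 3 residual and 1.62 prior degrees of freedom. The step was tested on simulated data. The number of arrays limits the precision. Lists are described by counts and medians, with no set test. Members, lists and named genes were chosen with earlier results of these data known. All members are named. Arrays are given singly for the 6 called members of each compartment with the largest folds, for pairs called in opposite directions and for GARS1 and KARS1. Related lists give up to 4 called genes and a fixed panel, and promoters the 5 measured members with the element core and the largest folds. Shared-sequence probe sets are those whose names end in _x_at or _s_at. The 18 alternatives covered scaling, probe set choice, dim genes, the variance model, array weights, the threshold, a replicate block and each array left out. Figures were drawn with matplotlib 3.10.9.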

Additional observations from a re-analysis of the deposited data

How the results depend on the processing

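Main counts were 2760 genes higher and 3089 lower, 1 and 7 for cytosolic and 1 and 9 for mitochondrial members, with medians of -0.13 and -0.33. After poly-A centring they were 1380 and 14740, 0 and 14, and 0 higher, with medians of -0.51 and -0.71; IARS2 turned to -0.34, TUFM to -0.049 and EIF2AK4 to -0.080. The replicate block left 1262 and 1316 genes, 0 and 1 cytosolic and 0 and 1 mitochondrial, and 16 of 18 called members lost their call. It leaves fewer residual degrees of freedom. The samples share only a number, and whether same-numbered arrays were handled together is not known. Deviations of same-numbered arrays correlated at 0.15 and -0.07. With 2 SAHA arrays the deviations mirror each other, so these values cannot tell whether a block is warranted. The unmoderated test gave 1538 and 1831 genes, and the threshold of 0.01 gave 1544 and 1773, with 5 mitochondrial members lower. Mitochondrial members called higher numbered 0 under both of these and with array weights, and 2 with ribosomal protein centring, repeated quantile normalization, averaged probe sets or no dim genes. Averaged probe sets moved the mitochondrial median to -0.21 and turned CARS2 to 0.070 and GATC to 0.072. Without shared-sequence probe sets 4 cytosolic members fell. IARS1 and LARS1, whose probe sets are all of that kind, had no value there, and YARS1 did not pass. In that setting MTRF1L gave -0.29 and TRMT5 0.28. With each array left out the ranges were 1769 to 2234 genes higher and 1985 to 2797 lower, 0 to 1 and 5 to 6 cytosolic members, and 0 to 2 and 4 to 10 mitochondrial members. Medians ran from -0.16 to -0.14 for cytosolic and from -0.35 to -0.27 for mitochondrial members. Without SAHA 1 or SAHA 2, a lone SAHA array is assumed to vary like the DMSO arrays. Apart from changes that follow from fewer arrays or genes, the cause was not tested.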
